A study of Homo sapiens with 6 samples.

Results

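The glucocorticoid receptor gene NR3C1 and 7 genes known to be induced through it (TSC22D3, FKBP5, PER1, KLF9, SGK1, ZBTB16 and DDIT4) were followed across 3 human myeloma lines. The 8 genes were chosen by their known place in the glucocorticoid response, and with a measured difference of TSC22D3 between these lines already in view. For that reason the differences of these genes between lines are given as a description, without a test. The CD24 comparison was not used in the choice and is tested. Of 19775 genes named by a probe set on the array, these are 8; 7 of them have a probe set annotated to that gene alone, 19 probe sets in all. PER1 has none: its 4 probe sets are annotated jointly with the microRNA gene MIR6883, so no value is given for it.

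ARP1, OCI-MY5 and OPM2 derive from multiple myeloma, the malignancy of plasma cells, which make antibody. Cells of each line were separated in a flow sorter by their staining for the surface glycoprotein CD24, and the CD24+ and the CD24- cells each gave 1 Affymetrix U133 Plus 2.0 array, 6 arrays in all. The submitters describe the CD24+ cells as cancer stem cell populations and set them against CD24- cells. All 6 samples came from lines in the same serum-containing medium, and the labels name no glucocorticoid, drug or genetic change in any of them. No label says whether the fractions came from separate cultures, so the p-values measure only the spread between these samples, which may be technical. Values are MAS5 intensities, 1 per probe set and array. Differences and folds are on the log2(intensity + 16) scale, on which changes of dim genes come out too small, and each gene stands by its brightest probe set unless another is named. In sorted but bulk RNA, fewer cells that make a transcript and less transcript per cell cannot be told apart.

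Glucocorticoids such as dexamethasone are a mainstay of myeloma treatment, and they kill susceptible plasma cells through the receptor. The unliganded receptor waits in the cytoplasm in a complex with HSP90 and its cochaperones. On binding hormone it moves to the nucleus, binds DNA and raises transcription of genes that include negative regulators of its own signal. TSC22D3 encodes GILZ, a leucine zipper protein that restrains the inflammatory factors NF-kB and AP-1 and is a standard readout of receptor activity in lymphoid cells. FKBP5 is a cochaperone that lowers the hormone affinity of the receptor, KLF9 a zinc finger repressor, SGK1 a kinase of ion transport and survival, DDIT4 (REDD1) an inhibitor of the growth kinase complex mTORC1, and ZBTB16 (PLZF) a zinc finger transcription factor.

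The 3 lines carried the plasma cell program of their label. All 9 plasma cell markers examined lay above the range of the TrpnX control probe sets in each line. These controls for a bacterial transcript ran from 2.23 to 96.4 with a median of 9.92 and are used here as a background. The median log2 difference of the 9 markers from ARP1 was -0.53 in OCI-MY5 and 0.76 in OPM2. That of all tested genes was -0.04 in each. Markers of T and NK cells summed to 5553 (CD24+) and 7198 (CD24-) in ARP1 and to between 155.5 and 530 on the other 4 arrays, with 3 of 6 genes within the background range in ARP1. Nearly all of the ARP1 sum was GNLY, which encodes granulysin, at 5215 and 6859. Erythroid markers summed to 2393 and 1869 in OPM2 and to at most 303 elsewhere, with 2 of 3 genes within background in each line. Myeloid markers summed to between 99.8 and 316, with 3 to 5 of 5 genes within background. Stromal markers summed to between 352 and 621, with 2 to 5 of 6 genes within background. The part of such cells in the differences between lines was not tested. The OPM2 array of CD24+ cells was unlike the rest. Its spike-in controls had a geometric mean of 30657, against 5155 to 6102 on the other arrays, and its median intensity was 135, against 69.0 to 84.2.

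The receptor itself was present in all 3 lines and differed little between them. NR3C1, at 201865_x_at, read 5405 in CD24+ and 5549 in CD24- cells of ARP1, 4286 and 4015 in OCI-MY5, and 6401 and 6295 in OPM2. OPM2 was highest and OCI-MY5 lowest, and the arrays of no line overlapped those of another, yet the highest array was only 1.59 times the lowest. The log2 difference from ARP1 was -0.40 in OCI-MY5 (1.32-fold lower) and 0.21 in OPM2 (1.16-fold higher), and OPM2 exceeded OCI-MY5 by 0.61 (1.53-fold). With each array centred on its median, OPM2 was 0.05 below ARP1 instead (-0.05), so the order of those neighbours depends on the scaling. Probe sets ending in x_at can bind related transcripts, and 4 further NR3C1 probe sets were therefore read as well.

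The other receptor probe sets gave OCI-MY5 as the lowest line too, by small amounts. At 211671_s_at NR3C1 read 4000 and 4445 in ARP1, 3114 and 2978 in OCI-MY5, and 4946 and 5229 in OPM2, a step of -0.47 from ARP1 to OCI-MY5. At 201866_s_at it read 730 and 739, 437 and 549, and 671 and 813 in these lines, a step of -0.57, with ARP1 and OPM2 overlapping. At 216321_s_at the values were 3559 and 3403, 3324 and 2427, and 3762 and 2983, with OPM2 overlapping both other lines. The exception in size was 232431_at, the dimmest of the 5 NR3C1 probe sets. It read 202.5 and 321 in ARP1, 213 and 250 in OCI-MY5, and 611 and 492 in OPM2, so that OPM2 stood 2.08-fold above ARP1 and 2.29-fold above OCI-MY5, while ARP1 and OCI-MY5 overlapped.

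**Figure D1:**
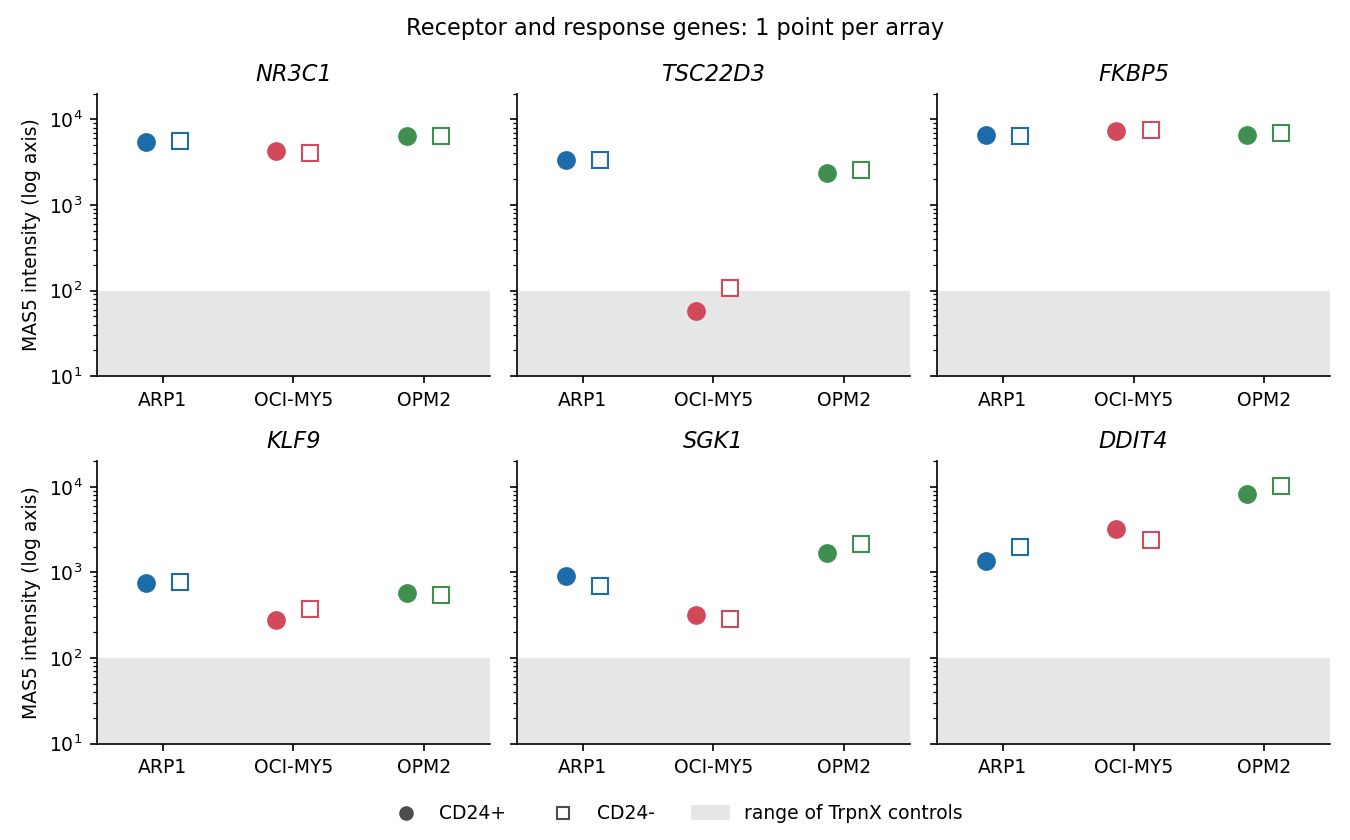
MAS5 intensity (log axis) of NR3C1, TSC22D3, FKBP5, KLF9, SGK1 and DDIT4 on each of the 6 arrays, with filled circles for CD24+ and open squares for CD24- cells; the grey band is the range of the TrpnX control probe sets, 2.23 to 96.4. TSC22D3 drops into or near the band only in OCI-MY5, while NR3C1 and FKBP5 stay nearly level across the lines.

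TSC22D3 was the member that separated the lines most, and it set OCI-MY5 against both others. At 208763_s_at it read 3314 (CD24+) and 3384 (CD24-) in ARP1, 57.4 and 105.9 in OCI-MY5, and 2356 and 2527 in OPM2. The 2 arrays of OCI-MY5 were far below the other 4, and the CD24+ one lay within the background range. TSC22D3 was 35.6-fold lower in OCI-MY5 than in ARP1 (log2 difference -5.15) and 26.0-fold higher in OPM2 than in OCI-MY5 (4.70). ARP1 and OPM2 differed by only 1.37-fold (-0.45), without overlap. By absolute size among 12067 genes bright enough to be tested, the step from ARP1 to OCI-MY5 at this probe set ranked 6. That between OPM2 and OCI-MY5 ranked 146, and that between OPM2 and ARP1 7111. The difference of TSC22D3 was in view in the choice, so nothing is read from its ranks. Since OCI-MY5 is close to background, the fold depends on the constant added before the logarithm: the log2 difference from ARP1 was -5.41 with 1 added and -4.57 with 64 added.

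A second TSC22D3 probe set repeated the low value in OCI-MY5 but placed OPM2 differently. At 207001_x_at TSC22D3 read 425.5 and 465 in ARP1, 102.3 and 70.7 in OCI-MY5, and 186 and 85.1 in OPM2. OCI-MY5 was 4.55-fold below ARP1, and OPM2 was 3.23-fold below ARP1 and overlapped OCI-MY5. The last, 235364_at, read between 1.97 and 51.1 and was within the background range on all 6 arrays. That OPM2 holds TSC22D3 at nearly the ARP1 level therefore rests on 1 probe set, whereas the low level in OCI-MY5 was read on both bright ones.

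TSC22D3 is transcribed from several starts, and the 250 bases upstream of each RefSeq start of the members (GRCh38.p14) were read for short motifs, to show the promoter windows of TSC22D3 beside those of FKBP5, the most even member, and SGK1, the member nearest to TSC22D3 in its values. RefSeq windows matched 7 of the 8 genes, 19 windows in all; ZBTB16 was not matched. The first below is a TSC22D3 window on chrX:107717063-107717312, minus strand. It holds the forkhead (FOXO) motif GTAAACA, here as its reverse complement TGTTTAC in capitals; FOXO factors are known to act on TSC22D3 together with the receptor. The second is the window of the most upstream TSC22D3 start, chrX:107775989-107776238, minus strand, without a motif of the search. FKBP5, level across lines, is represented by chr6:35688916-35689165, minus strand, with the E-box CACGTG in capitals, and SGK1 by chr6:134174867-134175116, minus strand, without a motif.

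TSC22D3, FOXO-motif start: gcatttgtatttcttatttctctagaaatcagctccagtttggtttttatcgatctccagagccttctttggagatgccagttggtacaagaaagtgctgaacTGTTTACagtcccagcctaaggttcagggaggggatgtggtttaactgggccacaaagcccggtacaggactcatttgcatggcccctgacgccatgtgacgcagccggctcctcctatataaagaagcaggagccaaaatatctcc

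TSC22D3, upstream start: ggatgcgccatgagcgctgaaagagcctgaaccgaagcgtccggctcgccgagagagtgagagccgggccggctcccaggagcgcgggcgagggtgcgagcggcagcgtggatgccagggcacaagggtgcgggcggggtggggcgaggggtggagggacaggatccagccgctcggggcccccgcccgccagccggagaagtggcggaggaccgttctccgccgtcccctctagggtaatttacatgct

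FKBP5: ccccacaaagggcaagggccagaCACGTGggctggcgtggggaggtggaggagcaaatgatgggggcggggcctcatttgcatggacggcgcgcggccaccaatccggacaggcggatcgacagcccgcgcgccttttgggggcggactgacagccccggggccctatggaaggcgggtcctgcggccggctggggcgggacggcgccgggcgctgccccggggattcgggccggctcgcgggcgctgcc

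SGK1: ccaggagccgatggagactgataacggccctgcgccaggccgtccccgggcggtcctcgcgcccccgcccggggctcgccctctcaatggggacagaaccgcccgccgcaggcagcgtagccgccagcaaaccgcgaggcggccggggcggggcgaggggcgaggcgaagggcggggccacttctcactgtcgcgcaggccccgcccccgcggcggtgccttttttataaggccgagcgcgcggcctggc

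The windows differ in base composition, with 48.0% G and C in the first TSC22D3 window, 71.2% in the second, 74.8% in that of FKBP5 and 76.0% in that of SGK1. The core of the receptor's DNA element, AGAACA or its reverse complement TGTTCT, was in 0 of the 19 windows, against 12.4% of all 35116 RefSeq windows of this length. The full palindrome of those cores with 3 bases between them was in 0 of 19 and in 1 of all windows. The FOXO motif, on either strand, was in 2 of 19 (the TSC22D3 window above and 1 of NR3C1, chr5:143403284-143403533) against 2.98% of all, and the E-box in 2 of 19 (FKBP5 and PER1) against 6.34% of all. A match is only a match of letters, and a missing match says only that the letters are not in this short window; the receptor is known to bind many of its targets far from the start.

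The other response genes did not share 1 pattern across the lines. FKBP5, the cochaperone, was the most even member. At 224840_at it read 6600 and 6422 in ARP1, 7334 and 7403 in OCI-MY5, and 6627 and 6873 in OPM2, and its highest array was 1.15 times its lowest. Here OCI-MY5 was the highest line, by 0.18 over ARP1 and 0.13 over OPM2 on the log2 scale, against the direction of TSC22D3, but the other probe sets did not repeat this. At a second, 224856_at, FKBP5 read 2540 and 2137, 1831 and 2323, and 1045 and 2347, and all 3 lines overlapped, with OCI-MY5 at -0.17 from ARP1. A dim further one, 204560_at, ran from 10.1 to 147, with 4 of its 6 arrays within the background range and OCI-MY5 at -1.65 from ARP1, without overlap.

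KLF9 was lowest in OCI-MY5, as TSC22D3 was, but by a much smaller step. At 203542_s_at it read 751 and 780 in ARP1, 275 and 374 in OCI-MY5, and 572 and 545 in OPM2. No 2 lines overlapped, and OCI-MY5 was 2.32-fold below ARP1 (-1.21) and 1.70-fold below OPM2. At 203543_s_at KLF9 read 640 and 928 in ARP1, 394 and 334 in OCI-MY5, and 349 and 512 in OPM2. OCI-MY5 was again 2.08-fold below ARP1, but there OPM2 overlapped OCI-MY5. With the mean of all KLF9 probe sets the step from ARP1 to OCI-MY5 was -0.77. The other 3 KLF9 probe sets were too dim to be tested, each with 5 or 6 of its 6 arrays within background.

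SGK1 was also lowest in OCI-MY5, and highest in OPM2. Its 1 probe set, 201739_at, read 901 and 703 in ARP1, 320 and 283 in OCI-MY5, and 1672 and 2154 in OPM2. The lines did not overlap: OCI-MY5 was 2.56-fold below ARP1 (-1.36), OPM2 2.36-fold above it (1.24), and OPM2 6.04-fold above OCI-MY5 (2.59).

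DDIT4, the mTORC1 inhibitor, had another order. At 202887_s_at it read 1367 and 1978 in ARP1, 3185 and 2403 in OCI-MY5, and 8170 and 10175 in OPM2. ARP1 was lowest: OCI-MY5 was 1.68-fold above it (0.74) and OPM2 5.50-fold (2.46), and OPM2 was 3.28-fold above OCI-MY5 (1.71), with no overlap between lines. DDIT4 is also known to be induced by low oxygen and by amino acid and endoplasmic reticulum stress. ZBTB16, which responds strongly to hormone in many cell types, was not measurable here. Its probe set 205883_at read 8.42 and 56.2 in ARP1, 5.86 and 2.18 in OCI-MY5, and 13.4 and 59.5 in OPM2, within the background range on all 6 arrays.

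**Figure D2:**
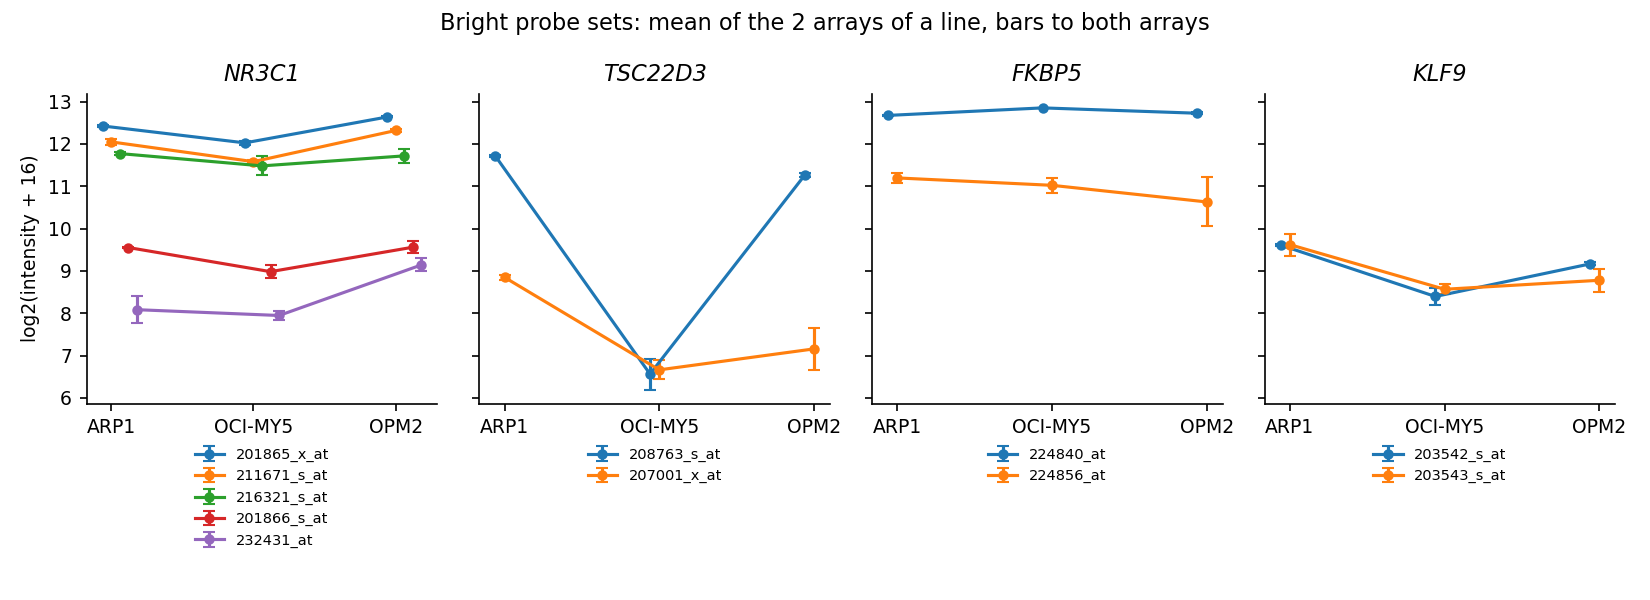
Mean log2(intensity + 16) of each line at every bright probe set of NR3C1, TSC22D3, FKBP5 and KLF9, with bars from the lower to the higher of the 2 arrays of a line. The 2 TSC22D3 probe sets both fall from ARP1 to OCI-MY5, by 5.15 and 2.19, and part in OPM2.

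The question put to these genes was whether the difference of TSC22D3 between lines follows the receptor or the other response genes. In size it followed neither at the brightest probe sets. From ARP1 to OCI-MY5 TSC22D3 moved by -5.15, NR3C1 by -0.40, KLF9 by -1.21, SGK1 by -1.36, FKBP5 by 0.18 and DDIT4 by 0.74. At 207001_x_at the step of TSC22D3 was -2.19, nearer to those of KLF9 and SGK1. In direction, NR3C1, KLF9 and SGK1 were lowest in OCI-MY5 with TSC22D3, and FKBP5 and DDIT4 were not. For FKBP5 this holds at both bright probe sets, with OPM2 the lowest line at 224856_at, where all lines overlapped. Averaged over all its probe sets, FKBP5 was -0.55 from ARP1 to OCI-MY5 and 0.11 from OCI-MY5 to OPM2. That would make OCI-MY5 its lowest line too, but the average includes the dim 204560_at, at -1.65 from ARP1 to OCI-MY5. Between OPM2 and ARP1, where TSC22D3 differed by -0.45, DDIT4 and SGK1 differed most, by 2.46 and 1.24. The log2 values are differences of line means over 2 arrays each, with no test. OCI-MY5 was the lowest line for 4 of the 6 tested members, ARP1 for 2 and OPM2 for 0. Among all tested genes the lowest line was OCI-MY5 in 31.7%, ARP1 in 28.0% and OPM2 in 40.2%. TSC22D3, whose difference was in view in the choice, is among the 4, so nothing is read from these counts.

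Lines are called apart here where their means differ at least 2-fold and their arrays do not overlap. Between OCI-MY5 and ARP1, 3 of the 6 tested members (TSC22D3, KLF9 and SGK1) were apart, against 11.6% of all tested genes. Between OPM2 and ARP1, 2 of 6 (SGK1 and DDIT4) were apart, against 25.5%, and between OPM2 and OCI-MY5, 3 of 6 (TSC22D3, SGK1 and DDIT4), against 26.8%. The members were chosen with these lines in view, so nothing is read from these shares or from the medians that follow. The median absolute log2 difference of the 6 members was 0.98 between OCI-MY5 and ARP1, 0.45 between OPM2 and ARP1 and 1.24 between OPM2 and OCI-MY5, where that of all tested genes was 0.38, 0.58 and 0.59. Centring the arrays on their medians moved the median difference of all genes from -0.04 to -0.30 between OPM2 and ARP1, from -0.04 to 0.09 between OCI-MY5 and ARP1 and from -0.002 to -0.40 between OPM2 and OCI-MY5. Under that scaling, 1 member in place of 2 was apart between OPM2 and ARP1. Between OCI-MY5 and ARP1 the count was 2 with the mean of all probe sets and 4 without the CD24- array of ARP1.

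**Figure D3:**
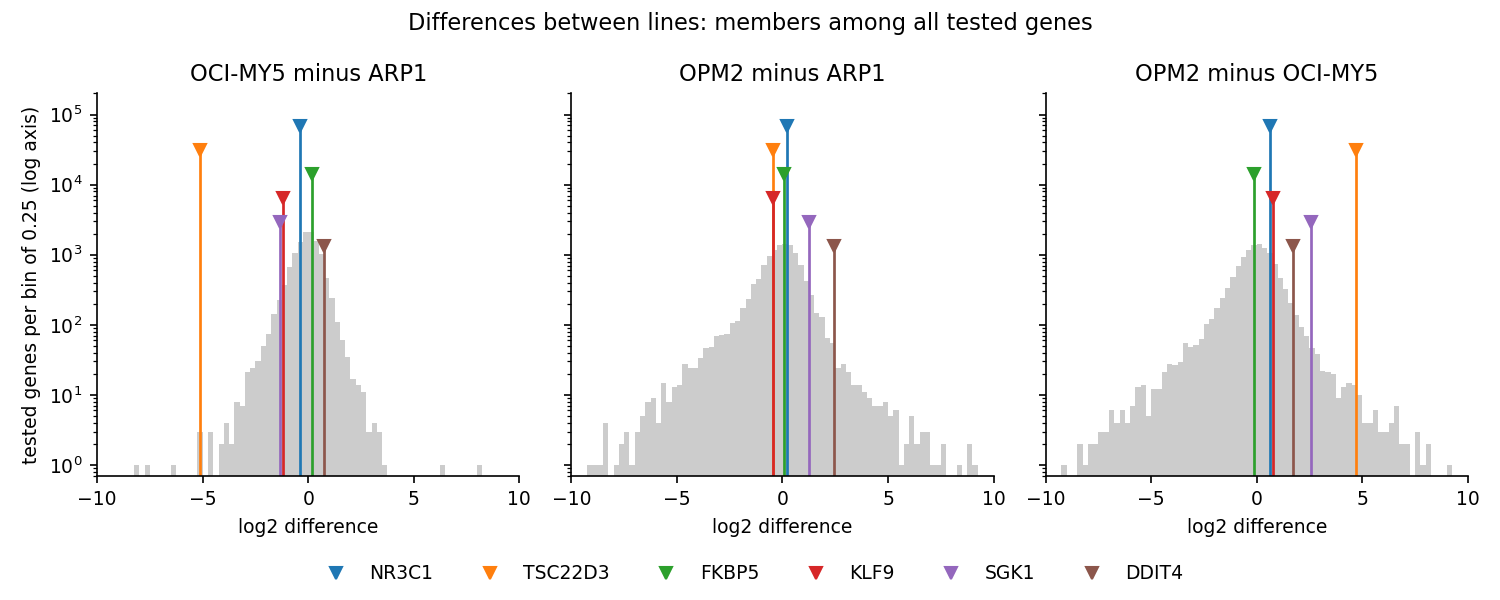
Log2 difference between lines of all 12067 tested genes (grey bars, number of genes per bin on a log axis) with the 6 tested members as coloured lines whose heights carry no meaning. TSC22D3, whose difference was in view in the choice, lies at -5.15 for OCI-MY5 minus ARP1 and at 4.70 for OPM2 minus OCI-MY5. Both values are in the tails of their distributions. NR3C1 and FKBP5 lie within 0.61 of 0 in all 3 panels.

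None of these genes was called between the CD24 fractions, nor was any other gene: limma called 0 of 12067 genes (0%), with 147 at an unadjusted p under 0.05, and 0 with the line as a block, with 559 at an unadjusted p under 0.05. NR3C1 differed by 0.03 ± 0.07 (log2 CD24+ minus CD24-, SD, n = 3 lines), FKBP5 by -0.01 ± 0.05 and SGK1 by 0.05 ± 0.37. TSC22D3 differed by -0.29 ± 0.39, KLF9 by -0.14 ± 0.26 and DDIT4 by -0.15 ± 0.49. The adjusted p from limma was 0.99996 for each of the 6, and with the line as a block it ran from 0.847 for TSC22D3 to 0.992 for FKBP5. With 3 lines and 1 array per line and fraction, a difference of this size could not be told from the spread between arrays.

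Within lines, TSC22D3 was lower in CD24+ cells in all 3, with -0.03 in ARP1, OCI-MY5 at -0.73 and OPM2 at -0.10. The -0.73 stands between values near background, and at 207001_x_at TSC22D3 differed by 0.45 in OCI-MY5 and 0.997 in OPM2, the opposite way. DDIT4 differed by -0.53, 0.40 and -0.32, SGK1 by 0.35, 0.17 and -0.36, and KLF9 by -0.05, -0.42 and 0.07, in the order ARP1, OCI-MY5, OPM2. None of these 3 kept 1 direction. Of the variance of each member over the 6 arrays, the line accounted for 98.6% in NR3C1, 99.2% in TSC22D3, 93.7% in FKBP5, 94.2% in KLF9, 97.9% in SGK1 and 95.9% in DDIT4. The median of all tested genes was 77.5% for the line and 4.76% for the fraction. The members were chosen with a difference between lines in view, so nothing is read from their line shares.

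**Figure D4:**
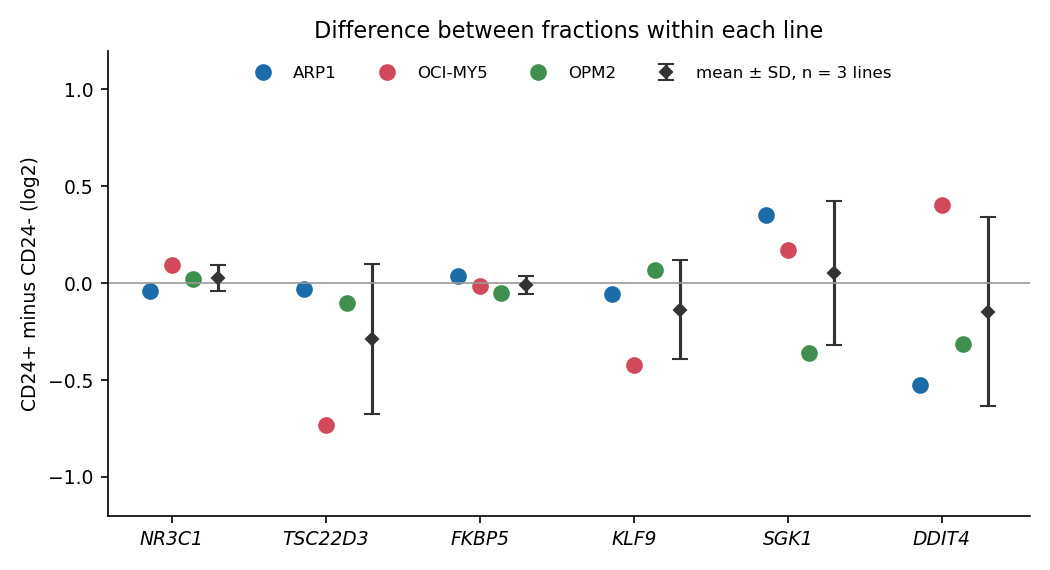
Log2 difference CD24+ minus CD24- of each tested member in each line, with 1 point per line. The points lie between -0.73 (TSC22D3 in OCI-MY5) and 0.40 (DDIT4 in OCI-MY5), and NR3C1 and FKBP5 stay within 0.09 of 0.

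The genes whose profile over the 6 arrays was most like that of TSC22D3 were not response genes of the list. Likeness was measured as the root mean square distance between log2 profiles centred on their means, over 12066 other tested genes. This distance counts the size of a change. A gene that moved much less than TSC22D3 therefore lies far from it even where the direction is the same. The nearest was IGFBP7, a secreted binding protein of insulin-like growth factors, at a distance of 0.61. It read 6858 and 9881 in ARP1, 59.9 and 126 in OCI-MY5, and 6707 and 6699 in OPM2. Next came GPRC5D, an orphan receptor of the plasma cell surface, at 0.72, reading 3525 and 3093, 187 and 428, and 3097 and 3511. They were followed by KCND2 at 0.84, ARFGEF3 at 0.90 and PPM1H at 0.92. Among the members, SGK1 ranked 149 at a distance of 1.58, KLF9 500 at 1.86, NR3C1 1897 at 2.12, FKBP5 6605 at 2.41 and DDIT4 6999 at 2.43.

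Nearest to NR3C1 were UQCRC1 at 0.03, TAX1BP1 at 0.05, MIF4GD and NDUFV3 at 0.06 and PAXX at 0.07. NR3C1 itself hardly moves, so these are genes that likewise hardly move. From NR3C1, FKBP5 ranked 2412, KLF9 3648, SGK1 9551, DDIT4 10158 and TSC22D3 11852 of 12066. The distances describe 6 arrays from 3 lines and carry no test.

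TSC22D3 lies on the X chromosome, and its neighbours were read after its own value was seen. Within 2 Mb on either side, 11 genes including TSC22D3 were bright enough to be tested. PRPS1, the neighbour on one side, which encodes an enzyme of nucleotide synthesis, read 4812 and 4802 in ARP1, 3603 and 3975 in OCI-MY5, and 2837 and 4081 in OPM2, a step of -0.34 from ARP1 to OCI-MY5. MID2, a ubiquitin ligase gene on the other side, read 177 and 179, 134 and 107.3, and 271 and 212, a step of -0.51. All 10 neighbours had a lower mean in OCI-MY5 than in ARP1, from -0.20 for MORC4 to -1.19 for NUP62CL. The OCI-MY5 arrays of NUP62CL, at 85.0 and 22.8, were within background. For IRS4 the arrays of OCI-MY5 and ARP1 overlapped, and 4 of the 6 arrays were within background. No neighbour approached the -5.15 of TSC22D3. The 387 tested genes of the X chromosome had a median of -0.25 in that comparison, against -0.04 for all genes.

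**Figure D5:**
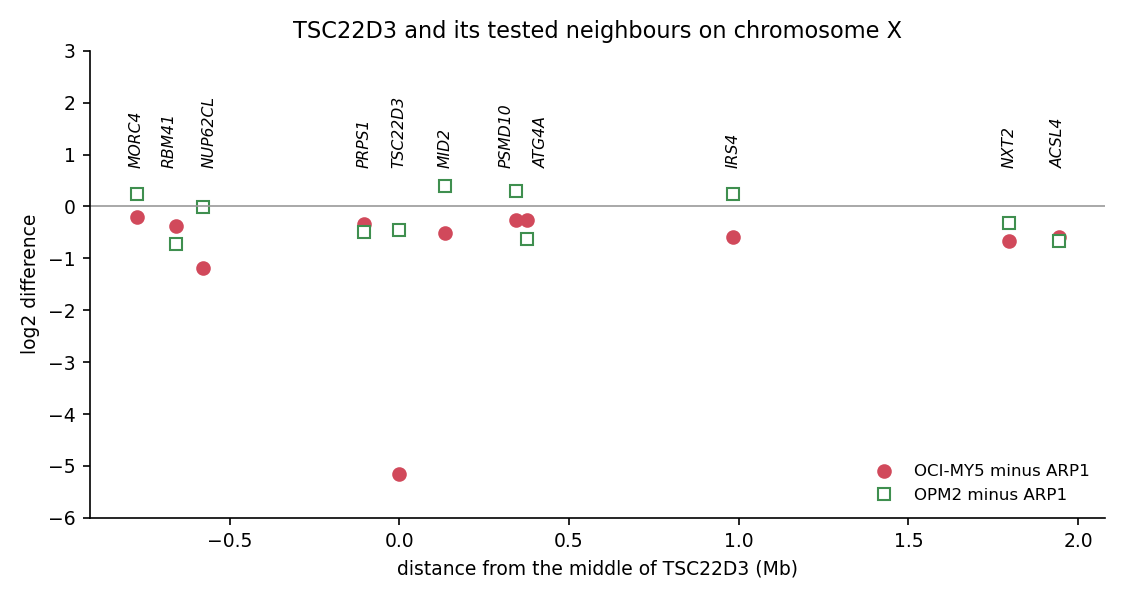
Log2 difference from ARP1 of TSC22D3 and its 10 tested neighbours on the X chromosome, against the distance from the middle of TSC22D3 in megabases, with filled circles for OCI-MY5 and open squares for OPM2. TSC22D3 stands alone at -5.15 in OCI-MY5, below neighbours between -1.19 and -0.20.

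A wider list of 42 other genes known to be induced by glucocorticoids was fitted with all genes. This list and the later ones were chosen with earlier results of these data known. Their calls and p-values between lines are therefore given as a description. Of the 42 genes, 40 were named and 32 were tested. The 2 arrays of a line served as its replicates, and limma with Benjamini-Hochberg adjustment at 0.05 called 25.1% of all tested genes between OPM2 and ARP1, 2.72% between OCI-MY5 and ARP1 and 26.2% between OPM2 and OCI-MY5. Of the 32, 4 were higher and 8 lower in OPM2 than in ARP1, 1 was higher and 4 lower in OCI-MY5 than in ARP1, and 6 were higher and 6 lower in OPM2 than in OCI-MY5. Their median log2 differences were -0.32, -0.21 and -0.16. With the arrays centred on their medians the counts were 1 higher and 8 lower, 0 and 3, and 3 and 6, and the calls of all genes went from 40.6% to 22.1% higher in OPM2 than in ARP1 and from 43.5% to 22.4% higher in OPM2 than in OCI-MY5. The 12 calls between OPM2 and ARP1 became 7 without the CD24+ and 6 without the CD24- array of ARP1, and 7 without the filter on dim genes, and the 12 between OPM2 and OCI-MY5 became 8 without either OCI-MY5 array. Without any 1 array of ARP1 or of OCI-MY5, 0 of the 32 were called between those lines (12 of 32 had an unadjusted p under 0.05 on all arrays), as also without the filter on dim genes or with the fraction as a term. Of the 32, OPM2 was the lowest line in 17, OCI-MY5 in 9 and ARP1 in 6. Among all tested genes it was OPM2 in 40.2%, OCI-MY5 in 31.7% and ARP1 in 28.0%. Nothing is read from these counts about TSC22D3, which was lowest in OCI-MY5.

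The induced genes with the largest differences fell into several patterns. CXCR4, the chemokine receptor that holds plasma cells in the marrow, was the 1 gene of the 32 called lower in OCI-MY5 than in both other lines, as were 128 of all tested genes. It read 5940 and 4365 in ARP1, 596 and 585 in OCI-MY5, and 12722 and 9736 in OPM2 (log2 difference -3.07 from ARP1, limma adjusted p = 0.0223, and 4.199 between OPM2 and OCI-MY5, adjusted p = 0.000921). The first of these calls was lost without any 1 array of ARP1 or OCI-MY5, at an adjusted p between 0.138 and 0.235, without the filter on dim genes (0.108) and with the fraction as a term (0.0688).

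DUSP1, a phosphatase that switches off MAP kinases, was high in ARP1 alone. It read 23170 and 24889 there, 957 and 869 in OCI-MY5, and 502 and 1181 in OPM2. It was lower by -4.93 in OPM2 (limma adjusted p = 0.00246) and by -4.70 in OCI-MY5 (adjusted p = 0.0230, between 0.138 and 0.235 without any 1 array of ARP1 or OCI-MY5, 0.108 without the filter and 0.0703 with the fraction as a term). GLUL, glutamine synthetase, stepped down from 3325 and 2936 in ARP1 through 207 and 226 in OCI-MY5 to 13.95 and 6.81 in OPM2, within background. The OPM2 difference from ARP1 was -6.91 (limma adjusted p = 0.000337; -3.47 with the mean of all probe sets). CEBPD, a transcription factor of the acute phase response, was highest in OCI-MY5, at 663 and 735 against 308 and 384 in ARP1, and within background in OPM2, at 5.14 and 18.1 (-4.73 against OCI-MY5, limma adjusted p = 0.00103; -2.96 with the mean of all probe sets).

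Several chaperones of the receptor complex were lower in OPM2 than in ARP1. In that comparison limma called 25.1% of all tested genes, 1229 of them higher and 1795 lower. The share was 2.72% between OCI-MY5 and ARP1 and 26.2% between OPM2 and OCI-MY5. Of 14 chaperone and cochaperone genes of the receptor complex, 11 were tested; 1 was higher and 4 lower in OPM2 than in ARP1, 0 were called by limma between OCI-MY5 and ARP1, where 5 had an unadjusted p under 0.05, and 1 was higher and 2 lower in OPM2 than in OCI-MY5 (0 and 2 with median centring). HSP90AB1, the constitutive HSP90 that holds the receptor ready for hormone, read 37091 and 32561 in ARP1, 27766 and 34060 in OCI-MY5, and 6649 and 12070 in OPM2. It was lower in OPM2 than in ARP1 by -1.95 (limma adjusted p = 0.0152), a call lost without either ARP1 array, at 0.101 and 0.0849. FKBP4, the cochaperone that opposes FKBP5 on the receptor, read 5393 and 5284, 2525 and 3374, and 1135 and 1879, and was lower in OPM2 than in ARP1 by -1.86 (limma adjusted p = 0.0140; 0.0934 and 0.0880 without either ARP1 array). With the mean of all FKBP4 probe sets the difference was -0.79 and the call was lost (adjusted p = 0.0896).

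CDC37 and STIP1, cochaperones of HSP90, were lower in OPM2 than in ARP1 by -2.23 and -2.09 (limma adjusted p = 0.0360 and 0.0244), and both calls were lost without either ARP1 array or without the CD24+ array of OPM2 (0.053 to 0.160), that of CDC37 also without either OCI-MY5 array (0.0541) or with the fraction as a term (0.0652). Without the filter on dim genes both were lost, at 0.0875 for CDC37 and 0.066 for STIP1. In all 4 of these genes the CD24+ array of OPM2, the one with the high spike-ins, had the lowest value of the 6. Its part in the difference was not tested, but the CD24- array of OPM2 was below both ARP1 arrays in each. Of 13 tested coregulators of the receptor, 0 were called by limma between either line and ARP1. In each comparison with ARP1, 2 had an unadjusted p under 0.05. Between OPM2 and OCI-MY5 1 was higher and 2 lower in OPM2 (0 called with median centring). Of all tested genes limma called 25.1% between OPM2 and ARP1, 2.72% between OCI-MY5 and ARP1 and 26.2% between OPM2 and OCI-MY5. Of 8 named genes of steroid supply and related receptors, 2 were tested. NR3C2, the mineralocorticoid receptor, which also binds cortisol, read 379 and 509 in ARP1, 1152 and 1082 in OCI-MY5, and 741 and 860 in OPM2. Its call in OPM2 over ARP1 (0.84, limma adjusted p = 0.0456) was lost without any 1 of the 6 arrays, at an adjusted p between 0.0545 and 0.207.

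Genes that glucocorticoids are known to repress gave few values, since 6 of the 15 named were tested. Of all tested genes limma called 25.1% between OPM2 and ARP1, 2.72% between OCI-MY5 and ARP1 and 26.2% between OPM2 and OCI-MY5. Between OCI-MY5 and ARP1 limma called 0 of the 6, with 0 at an unadjusted p under 0.05. In OPM2 1 was higher and 1 lower than in ARP1, and 1 was lower than in OCI-MY5. The lower gene was CCL5, a chemokine driven by NF-kB, at 1478 and 1724 in ARP1, 1254 and 1586 in OCI-MY5, and 8.12 and 22.1 in OPM2, within background (-5.73 against ARP1, limma adjusted p = 0.000750). ARP1 and OCI-MY5 overlapped in CCL5, and any relation of CCL5 to TSC22D3 was not tested.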

How the data were processed

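RNA of CD24+ and CD24- cells from 3 myeloma lines was measured on 6 Affymetrix U133 Plus 2.0 arrays. Per the submitters' processing notes, the authors used Affymetrix Expression Console 1.1, and what they deposited is a linear MAS5 intensity for each of 54675 probe sets. The trimmed mean without the extreme 2% was 500.1 on every array, and no further scaling was applied here. Scan dates and detection calls were not used. Probe sets were named from the platform annotation, with current symbols from RefSeq (GRCh38.p14; 41043 matched by Entrez ID): 41091 had 1 gene, 1801 several and 11721 none, and only the first kind was used. Tests did not use the 62 control probe sets. Each gene was represented by its brightest probe set, as log2(intensity + 16), and 12067 genes whose mean reached 6.36 (the median over probe sets) entered the tests, made with limma 3.58.1 under R 4.3.3 (two-sided, Benjamini-Hochberg adjustment at 0.05); 6 of the 8 members passed. The script was tested on simulated data.

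Samples were grouped by the CD24 label of their titles, 3 arrays a group, and by line, 2 arrays each. The replicate numbers of the titles stand for the lines: deviations from group means correlated at 0.70, 0.71 and 0.77 within lines and from -0.58 to 0.15 between them, so the numbers pair the samples. The fraction was tested without a block, with the line as a block as the alternative. Members and gene lists were chosen with earlier results of these data known. The text names all members and the 5 genes nearest to TSC22D3 and to NR3C1. From each list it draws on up to 4 called genes with the largest line differences. It also draws on up to 2 with 1 direction in all lines and the largest fraction difference. Not all genes of these 2 kinds are printed. In the hypoxia, stress and clock lists those printed were not always the ones with the largest line differences. VEGFA, drawn by its fraction direction, is given for its line difference. Alternatives were pseudocounts of 1 and 64, other filters, quantile normalization, median centring, other probe set rules, the fraction as a term and leaving out each array or line. The number of arrays limits the precision.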

Additional observations from a re-analysis of the deposited data

How the results depend on the processing

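The low TSC22D3 in OCI-MY5 kept its direction under every alternative in which its line differences were recomputed. The filter at the 75th percentile or leaving out an OPM2 array cannot change its difference between OCI-MY5 and ARP1. No alternative called any gene between CD24 fractions, the cell line as replicate block included (0 genes, with TSC22D3 at -0.29 in the paired fit as without it). The replicate block changed no call. Counts of genes called between lines were less stable, and the cause was not tested. Between OCI-MY5 and ARP1 the count of 328 became 168 with a pseudocount of 1, 731 with 64, 0 without the filter, 1282 with the filter at the 75th percentile, 146 with median centring, 137 with the mean of all probe sets, 129 with every probe set on its own and 6 with the fraction as a term. Without 1 array it ran from 0 (any array of ARP1 or OCI-MY5) to 1076 (either of OPM2). Between OPM2 and ARP1 3024 became 1430 without the filter and 1882 with median centring, and 708 to 4190 without 1 array (lowest without the CD24+ array of ARP1). Between OPM2 and OCI-MY5 3157 became 1640 without the filter and 933 to 4532 without 1 array (lowest without the CD24- array of OCI-MY5). Fits without 1 array leave a line with 1 array, assumed to vary like the others. Members apart between OPM2 and ARP1 went from 2 to 1 with median centring, and between OCI-MY5 and ARP1 from 3 to 2 with the mean of all probe sets and to 4 without the CD24- array of ARP1. With that mean FKBP5 turned to -0.55 between OCI-MY5 and ARP1.

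For NR3C1, OPM2 minus ARP1 was 0.17 with quantile normalization, -0.054 with centring and 0.30 with the mean of all probe sets. OCI-MY5 minus ARP1 was -0.48 with quantile normalization and -0.27 with centring, and OPM2 minus OCI-MY5 0.22 with centring and 0.67 with the mean. For TSC22D3, OPM2 minus ARP1 was -0.72 with centring and -0.68 with the mean of all probe sets, OCI-MY5 minus ARP1 -4.57 with a pseudocount of 64 and -2.73 with the mean, and OPM2 minus OCI-MY5 4.12, 4.30 and 2.05 with a pseudocount of 64, centring and the mean. The fraction differences, none called, reversed for NR3C1 with centring (-0.30) and the mean (-0.026), for TSC22D3 (0.19) and KLF9 (0.20) with the mean, for FKBP5 with quantile normalization (0.048) and for SGK1 with centring (-0.28). Without 1 array or line they ran from -0.16 to 0.18 for NR3C1, -1.82 to 1.47 for TSC22D3, -0.059 to 0.043 for FKBP5, -0.43 to 0.27 for KLF9, -0.64 to 0.80 for SGK1 and -0.80 to 0.59 for DDIT4. Signals near the TrpnX range, such as TSC22D3 in OCI-MY5, limit the folds.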

Other observations

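Lists of other stimuli known to act on some of the members were counted as well; of all tested genes limma called 25.1% between OPM2 and ARP1, 2.72% between OCI-MY5 and ARP1 and 26.2% between OPM2 and OCI-MY5. Of 7 tested hypoxia genes, 2 were higher and 2 lower in OPM2 than in ARP1, 1 was lower in OCI-MY5 than in ARP1, and 4 were higher and 2 lower in OPM2 than in OCI-MY5 (1 and 2, 0, and 2 and 2 with median centring). VEGFA, the vascular growth factor, read 4122 and 4158 in ARP1, 1426 and 1512 in OCI-MY5, and 4333 and 4723 in OPM2. It was lower in OCI-MY5 than in ARP1 by -1.49 (limma adjusted p = 0.0307), with OCI-MY5 the lowest line as for TSC22D3, but with OPM2 above ARP1. That call was lost without any 1 array of ARP1 or OCI-MY5 (adjusted p 0.172 to 0.257), without the filter on dim genes (0.135), with median centring (0.202), with every probe set on its own (0.0526) and with the fraction as a term (0.0790). ADM, the peptide adrenomedullin, ran the other way, at 5884 and 5509, 12457 and 12012, and 116 and 24.7, lower in OPM2 than in ARP1 by -6.28 (limma adjusted p = 0.00284).

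Of 10 tested genes of amino acid and endoplasmic reticulum stress, 2 were lower in OPM2 than in ARP1, 1 was lower in OCI-MY5 than in ARP1 and 2 were higher in OPM2 than in OCI-MY5 (2, 0 and 0 with median centring). ATF4, the transcription factor of this response, read 21761 and 20198 in ARP1, 15399 and 14487 in OCI-MY5, and 26224 and 24140 in OPM2, higher in OPM2 than in OCI-MY5 by 0.75 (limma adjusted p = 0.0316). The call was lost without any 1 array other than the CD24- array of OPM2 (adjusted p 0.0533 to 0.170), and with median centring the difference was 0.36 (0.573). It was also lost without the filter (0.112), with every probe set on its own (0.0536) and with the fraction as a term (0.0527). Of 11 tested clock genes, 3 were higher and 2 lower in OPM2 than in ARP1, and as many against OCI-MY5; 1 was higher and 2 lower in each with median centring. BHLHE40, a clock repressor, read 736 and 708 in ARP1, 446 and 439 in OCI-MY5, and 1392 and 1702 in OPM2, the order of SGK1, and was higher in OPM2 than in OCI-MY5 by 1.76 (limma adjusted p = 0.00401; 0.0551 with median centring).

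Relatives of the members were counted as well. Limma called 25.1% of all tested genes between OPM2 and ARP1, 2.72% between OCI-MY5 and ARP1 and 26.2% between OPM2 and OCI-MY5. Of 11 tested paralogues, 2 were higher and 3 lower in OPM2 than in ARP1 and than in OCI-MY5, and 1 was lower in OCI-MY5 than in ARP1; with median centring 0 were higher and 2 lower, 1 and 3, and again 1 lower. That gene was TSC22D1, of the same leucine zipper family as TSC22D3. It read 1764 and 2495 in ARP1, 234 and 302 in OCI-MY5, and 347 and 271 in OPM2. It was lower than in ARP1 in OCI-MY5 by -2.91 (limma adjusted p = 0.0235; 0.149 to 0.235 without any 1 array of ARP1 or OCI-MY5) and in OPM2 by -2.71 (adjusted p = 0.00367). With the mean of all TSC22D1 probe sets these were -1.195, no longer called (limma adjusted p = 0.0590), and -0.83, and the first call was lost too with the fraction as a term (0.0748) and without the filter (0.108). KLF13, of the family of KLF9, read 1358 and 1383, 758 and 784, and 3120 and 5591, higher in OPM2 than in OCI-MY5 by 2.41 (limma adjusted p = 0.00659; 0.0514 and 0.0501 without either OCI-MY5 array; a difference of 1.38 with the mean of all probe sets).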
